A study of Saccharomyces cerevisiae with 104 samples.

Results

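Hexose phosphorylation and upper glycolysis are described here through 6 genes of the budding yeast Saccharomyces cerevisiae, found by gene name: HXK1, HXK2, GLK1, PGI1, PFK1 and PFK2. All 6 were found among the 7108 entries of each RNA-seq table, and all 6 are among the 5989 nuclear protein-coding genes. Beside 100 ChIP-exo samples, not analysed here, the series holds 4 RNA-seq libraries of total RNA, called library 1 to library 4 as names only. The study concerns stalling of RNA polymerase II after acute oxidative stress. All samples carry the same protocol text, written for chromatin, with growth at 25 °C and exposure to 0.3 mM H2O2 for 6 min. No label gives an RNA-seq library a strain, genotype, condition or replicate. No groups were therefore compared or tested. Each library is 1 sample, so no value below has a replicate error, and values in series follow libraries 1, 2, 3 and 4.

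The first reaction of sugar breakdown in yeast is the transfer of a phosphate from ATP to glucose, which traps the sugar in the cell. The hexokinases encoded by HXK1 and HXK2 act on glucose and fructose, and the glucokinase encoded by GLK1 acts on glucose but not on fructose. Phosphoglucose isomerase, encoded by PGI1, turns glucose 6-phosphate into fructose 6-phosphate. Phosphofructokinase, built of alpha subunits from PFK1 and beta subunits from PFK2, then adds a further phosphate and commits the sugar to glycolysis. On plentiful glucose, Hxk2 is known as the main hexokinase and as a part of glucose repression, under which HXK1 and GLK1 are kept lower.

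TPM, the usual unit of transcript abundance, is abundance per gene length scaled to a fixed total per library. That total includes ribosomal RNA, and nuclear protein-coding genes held 46.9, 12.2, 21.2 and 5.77% of it. A level is therefore also given as a multiple of the median nuclear protein-coding gene, which stood at 40.2, 7.50, 17.6 and 3.59 TPM with a coverage, the mean read depth over a gene, of 12.8, 3.70, 8.17 and 2.26. TPM and coverage give the same multiple within a library, because their ratio is constant there. These are parts of a total, so the amount of messenger RNA per cell is not known.

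Of the 6 genes, 5 were abundant in every library, at 6.20 to 27.4 times the median gene, and HXK1 was not. HXK1 stood near 2 times the median gene in libraries 1 and 2 and far below it in libraries 3 and 4. HXK2 and GLK1 held nearly the same level against the median gene throughout. PGI1, PFK1 and PFK2 were highest in library 2, then in libraries 4, 1 and 3. Together the 6 genes held 0.485, 0.509, 0.377 and 0.403% of nuclear protein-coding TPM.

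**Figure D1:**
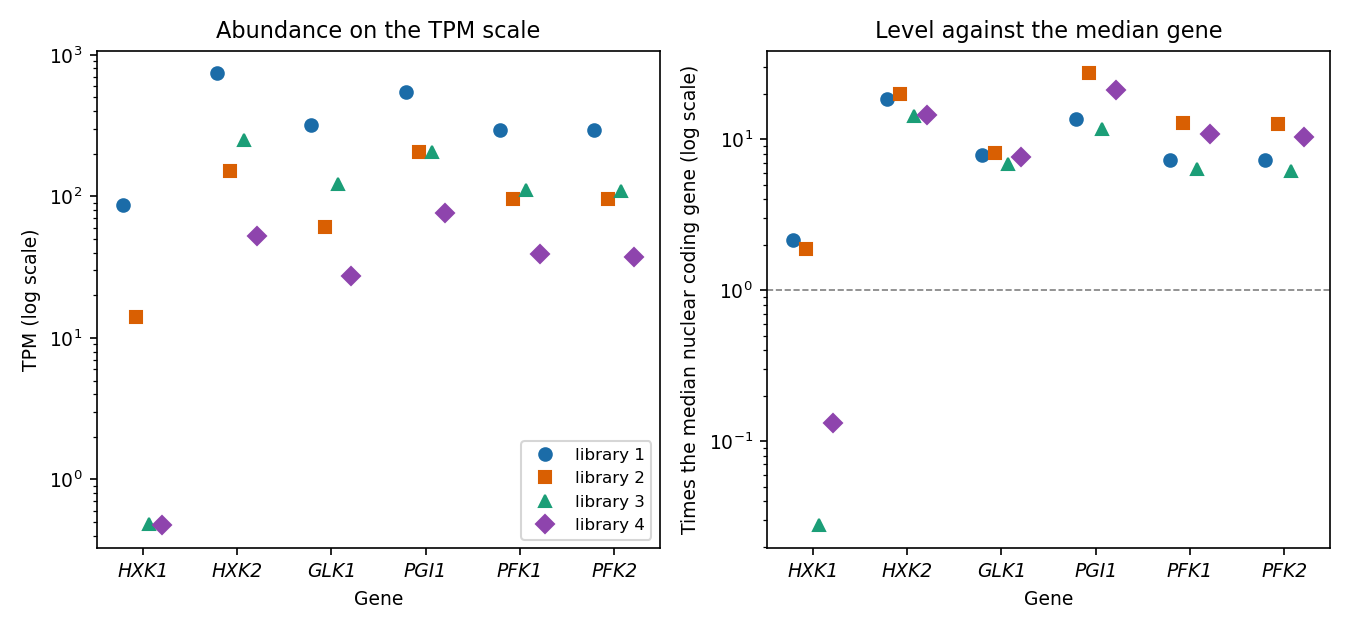
TPM (left, log scale) and level as a multiple of the median nuclear protein-coding gene (right, log scale; the dashed line marks the median gene) of the 6 genes, with 1 point per RNA-seq library. On the left, library 1 is highest for each gene and library 4 lowest, while on the right HXK2 and GLK1 draw together and HXK1 stands at 2.16 and 1.88 in libraries 1 and 2 and at 0.0277 and 0.132 in libraries 3 and 4.

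HXK2, the hexokinase that predominates on glucose (chromosome 7, 23935 to 25395, plus strand), stood at 739, 150.2, 252 and 52.2 TPM. Its coverage was 235, 74.2, 117 and 32.8. Library 1 was the highest and library 4 the lowest on both scales. Against the median gene the 4 libraries were much closer, at 18.4, 20.03, 14.3 and 14.5 times, and the highest was 1.40 times the lowest. HXK2 ranked between 66 and 191 among the 5989 nuclear protein-coding genes.

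GLK1, the glucokinase gene (chromosome 3, 50838 to 52340, plus strand), stood at 317, 60.96, 121 and 27.4 TPM, with a coverage of 100.6, 30.1, 56.3 and 17.2. Against the median gene it had the narrowest span of the 6 genes, at 7.88, 8.13, 6.89 and 7.64 times, and the highest was 1.18 times the lowest. After centring on the median gene, its range over the libraries was 0.23 log2 units, and 2.61% of the 5667 genes whose median TPM was 1 or more had a smaller range. The log scale used a pseudocount of 0.1, a constant added to TPM; with 5, more than the 3.59 TPM of the median gene in library 4, the range of GLK1 was 0.87, that of PFK1 0.67, that of PFK2 0.69 and that of PGI1 0.87, so GLK1 was no longer the narrowest. A short entry on the same strand, YCL042W (50584 to 50943), shares 106 bases with the start of GLK1, and it stood at 1.34, 0.701, 1.88 and 3.13 times the median gene.

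The balance of these 2 enzymes moved little. GLK1 was at 0.429, 0.406, 0.482 and 0.525 times HXK2 on the TPM scale, a ratio within a library that does not depend on its scaling. HXK2 made up 64.7, 66.7, 67.4 and 65.2% of the summed TPM of the 3 sugar kinase genes. GLK1 made up 27.7, 27.1, 32.5 and 34.2%, with the larger shares in libraries 3 and 4.

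HXK1, the second hexokinase gene (chromosome 6, 253592 to 255049, minus strand), stood at 86.8, 14.1, 0.488 and 0.475 TPM. Its coverage was 27.6, 6.95, 0.226 and 0.298. Libraries 1 and 2 lay above the median gene, at 2.16 and 1.88 times, and libraries 3 and 4 lay below it, at 0.0277 and 0.132 times. In libraries 3 and 4 the reads over the gene summed to only 330 and 435 bases, against 40174 and 10129 in libraries 1 and 2, so the low values rest on very few reads and their ratio to each other is uncertain. HXK1 ranked 1253, 1577, 5779 and 5521 of the 5989 genes. Its share of the 3 sugar kinase genes was 7.59, 6.25, 0.131 and 0.593%.

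Set against its paralog, HXK1 was at 0.117, 0.0936, 0.00194 and 0.00909 times HXK2. The ratio thus spanned 60.6-fold over the libraries, whereas the ratio of GLK1 to HXK2 spanned 1.29-fold. The centred range of HXK1 was 6.02 log2 units, and 22 of the 5667 genes had a range at least as large. Sorted by level, the libraries fell apart between library 2 and library 4, with a gap of 3.58 log2 units. Of the 5667 genes, 33 (0.582%) had a gap at least that wide between any neighbouring libraries. Without library 3 the range of HXK1 was 3.79.

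**Figure D2:**
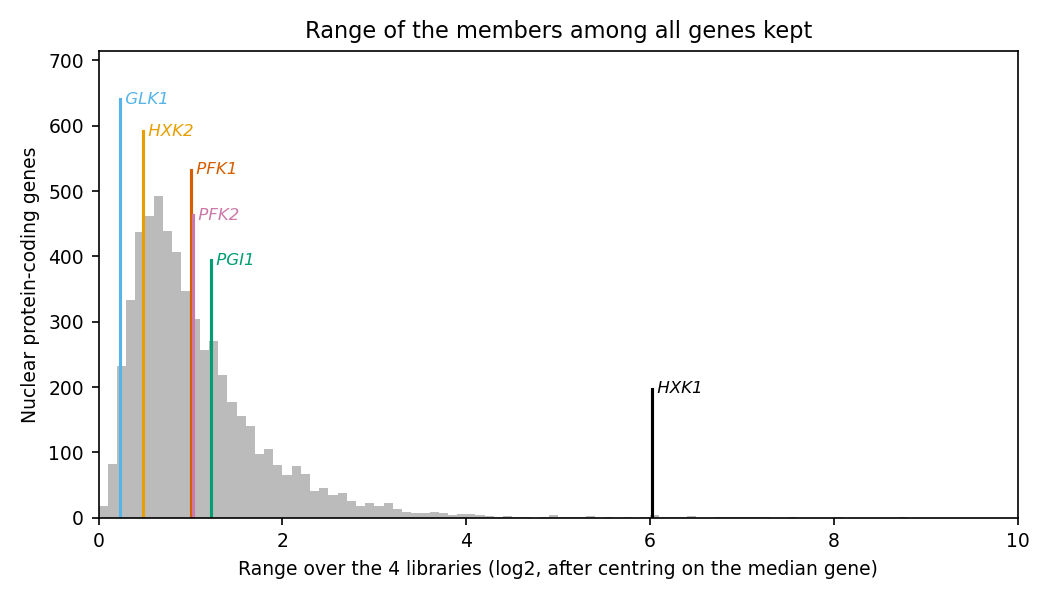
Number of nuclear protein-coding genes by range over the 4 libraries (log2 units, after centring on the median gene), for the 5667 genes whose median TPM was 1 or more, with a vertical line for each of the 6 genes whose height has no meaning. GLK1 (0.23) and HXK2 (0.48) lie left of the median gene (0.88), PFK1, PFK2 and PGI1 (1.01 to 1.22) right of it, and HXK1 (6.02) far out on the right.

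Next to HXK1, the entries past its end were above the median gene in libraries 3 and 4. YFR052C-A, a short entry on the same strand (253429 to 253734), covers the last 143 bases of HXK1 and stood at 32.1, 3.64, 28.01 and 5.11 TPM. Against the median gene it was at 0.797, 0.485, 1.59 and 1.42 times, so it was higher in libraries 3 and 4, where HXK1 was low. RPN12, a proteasome subunit gene on the other strand beyond that entry, stood at 1.55, 2.18, 1.66 and 1.96 times the median gene. On the other side the nearest entry, YFR054C (258855 to 259433), stood at 0.821, 4.37, 0.112 and 0.220 TPM. It was below the median gene in every library, at 0.0204, 0.583, 0.00634 and 0.0612 times. On the TPM scale YFR054C was, like HXK1, lower in libraries 3 and 4 than in libraries 1 and 2. Against the median gene this did not hold, since library 4 was above library 1. In a step chosen after seeing the values, the read bases of HXK1 and YFR052C-A were added and divided by the 1621 bases they span together. Reads over the 143 shared bases may count 2 times in this. The result was 2.09, 1.78, 0.325 and 0.387 times the coverage of the median gene. In library 3, YFR052C-A gave 3977 of these bases and HXK1 330. The range over the libraries was then 2.68 log2 units, taken from coverage without a pseudocount, and libraries 3 and 4 were still the low ones.

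**Figure D3:**
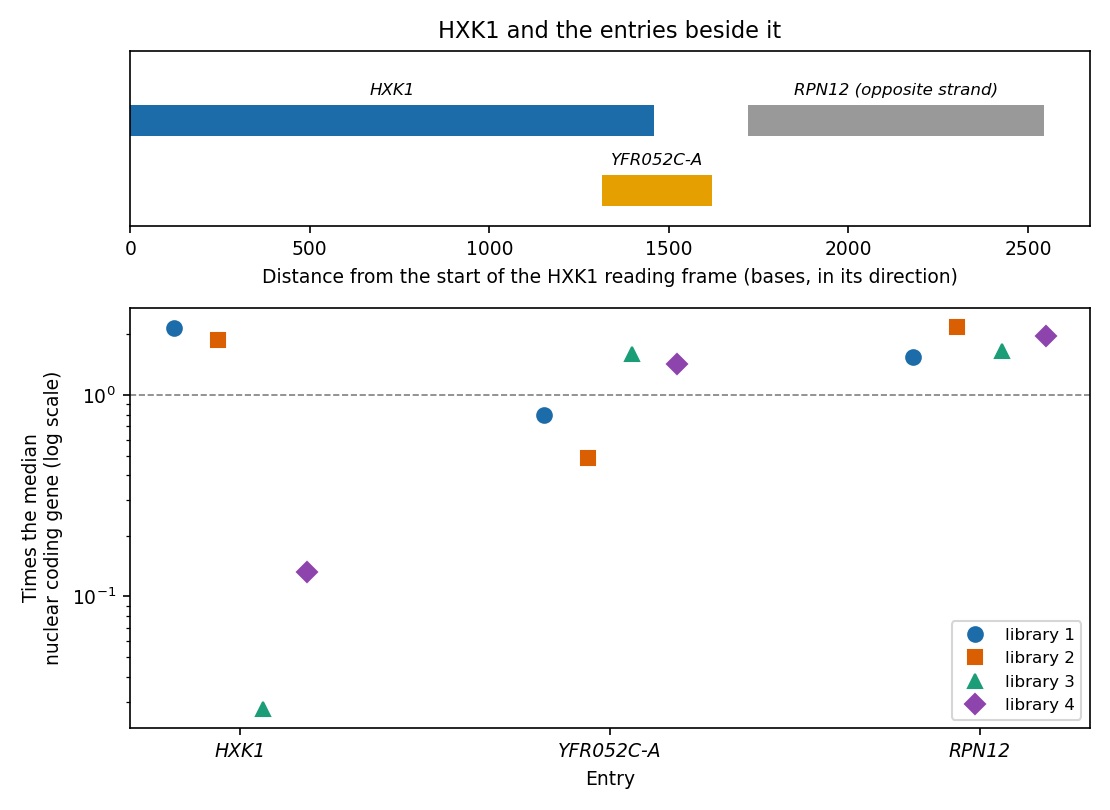
Top, HXK1, the overlapping entry YFR052C-A and the gene RPN12 drawn to scale by distance in bases from the start of the HXK1 reading frame. Bottom, the level of each as a multiple of the median nuclear protein-coding gene (log scale; the dashed line marks the median gene), with 1 point per library. HXK1 is at 0.0277 and 0.132 in libraries 3 and 4, where YFR052C-A is at 1.59 and 1.42 and RPN12 at 1.66 and 1.96.

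Genes that overlap another entry on their strand had wider gaps more often, a description made after the HXK1 values were seen and not tested. Of the 179 kept genes that overlap another entry on the same strand, 55.9% had a gap of at least 1 log2 unit between neighbouring libraries, against 17.1% of the 5488 that do not. At a gap of at least 3 log2 units these shares were 10.6 and 0.620%. With a median TPM of 10 or more required, the shares at 1 log2 unit were 44.05 and 14.01%, and at 3 log2 units 5.95 and 0.369%. HXK1, with a median of 7.28 TPM, is not among the genes of that minimum. The gap counted could lie between any neighbouring libraries, not only between those that part for HXK1. The tables of libraries 1 and 2 also list chromosome 10 after chromosome 1, and those of libraries 3 and 4 list chromosome 2 there, which divides the libraries as HXK1 does. The orders 1 2 3 4, 1 2 4 3, 2 1 3 4 and 2 1 4 3 give this division. They held 2.29, 1.01, 2.82 and 2.03% of the 5667 genes. The reverse orders, 3 4 1 2, 3 4 2 1, 4 3 1 2 and 4 3 2 1, held 1.80, 1.13, 2.96 and 3.67%. The part of the overlap, or of any difference in processing, in the low HXK1 values was not tested. HXK1 and HXK2 are also alike in sequence, and how reads that match both were counted is not given in the sources used here. GLK1, which overlaps a same-strand entry too, had a largest gap of 0.12 log2 units. Whether the overlap affects the values of either gene was not tested.

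PGI1, the gene of phosphoglucose isomerase (chromosome 2, 612236 to 613900, minus strand), stood at 546, 205.3, 205.5 and 76.6 TPM. Its coverage was 173, 101.4, 95.4 and 48.1. Libraries 2 and 3 were nearly equal on the TPM scale but not against the median gene, where PGI1 stood at 13.6, 27.4, 11.7 and 21.3 times. The highest, library 2, was 2.34 times the lowest, library 3. PGI1 had the highest median level of the 6 genes, at 17.4 times the median gene, ahead of HXK2 at 16.5 times. HXK2 was the higher of the pair in libraries 1 and 3 and PGI1 in libraries 2 and 4, so their order is not fixed.

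The place of the isomerase against the kinases shifted in the same way. PGI1 was at 0.478, 0.911, 0.550 and 0.955 times the summed TPM of HXK1, HXK2 and GLK1. In libraries 2 and 4 the isomerase messenger was thus nearly as abundant as the 3 kinase messengers together, and in libraries 1 and 3 it was well below them. The ratio spanned 1.999-fold over the libraries. Libraries 2 and 4 were also those with the smaller nuclear protein-coding shares of TPM, at 12.2 and 5.77%.

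PFK1, the gene of the phosphofructokinase alpha subunit (chromosome 7, 970771 to 973734, minus strand), stood at 295, 96.5, 112 and 38.97 TPM. PFK2, the gene of the beta subunit (chromosome 13, 671887 to 674766, minus strand), stood at 293, 95.3, 109 and 37.3 TPM. The subunit genes, on different chromosomes, were thus nearly level in each library. PFK1 was at 7.32, 12.9, 6.34 and 10.8 times the median gene and PFK2 at 7.29, 12.7, 6.20 and 10.4 times. Coverage was 93.5, 47.6, 51.8 and 24.5 for PFK1 and 93.1, 47.1, 50.6 and 23.4 for PFK2.

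The ratio of PFK1 to PFK2 was 1.00, 1.01, 1.02 and 1.05, and the highest was 1.04 times the lowest. This was the narrowest of the 5 ratios computed among the 6 genes. PFK1 and PFK2 were also each other's nearest gene in pattern. Nearness was the distance between the differences of a gene from its own 4-library median, in log2 units over the 4 libraries, after centring on the median gene. At a distance of 0.045 each ranked 1 among the 3609 other genes whose median TPM was 10 or more. From PGI1, PFK1 and PFK2 ranked 17 and 18, at distances of 0.18 each.

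**Figure D4:**
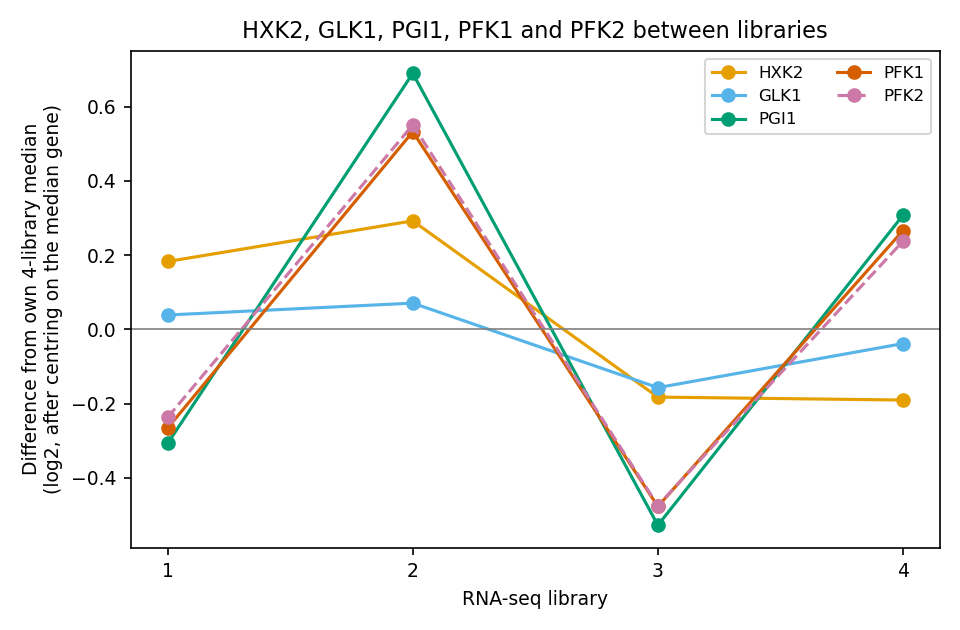
Difference of HXK2, GLK1, PGI1, PFK1 and PFK2 from their own 4-library median (log2 units, after centring on the median gene) in each RNA-seq library; lines only join the values of a gene. PGI1, PFK1 and PFK2 stand at 0.69, 0.53 and 0.55 in library 2 and at -0.53, -0.48 and -0.47 in library 3, while GLK1 stays between -0.16 and 0.07; HXK1 is left out for its larger range.

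These 3 genes had the libraries in the order 2, 4, 1 and 3 from high to low, an order that 502 of the 5667 genes (8.86%) had. With a pseudocount of 5, library 1 came above library 4 for these genes. The values were 0.16 and -0.16 log2 units from the own median for PGI1, 0.17 and -0.17 for PFK1, and 0.19 and -0.20 for PFK2. For PFK2, library 4 then also fell just below library 3, at -0.196 against -0.188. In libraries 1 and 4, PGI1 stood at -0.31 and 0.31 log2 units from its own median, PFK1 at -0.27 and 0.27 and PFK2 at -0.24 and 0.24. HXK2 stood at 0.18, 0.29, -0.18 and -0.19 and GLK1 at 0.04, 0.07, -0.16 and -0.04. HXK1, with the order 1, 2, 4 and 3, stood at 2.0005, 1.79, -4.02 and -1.79. The median over the 6 genes was -0.10, 0.54, -0.48 and 0.10, against -0.01, 0.00, 0.00 and 0.02 over all 5667 genes. All 6 genes were above their own median in library 2 and none in library 3, where 2835 and 2802 of the 5667 genes were. With a pseudocount of 5, GLK1 was at -0.03 in library 2 and 0.03 in library 3, which ends both counts.

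Taken by pairs of libraries, 0 to 4 of the 6 genes passed 2-fold. Between libraries 1 and 2 none did, where 28.1% of the 5667 genes differed at least 2-fold in either direction after centring. PGI1, at 0.997 log2 units higher in library 2, was just under that size. Between libraries 1 and 3, libraries 1 and 4, libraries 2 and 4, and libraries 3 and 4, HXK1 alone of the 6 did, where 3.62, 29.1, 7.78 and 22.3% of all genes did. Between libraries 2 and 3 it was HXK1, PGI1, PFK1 and PFK2, where 23.8% of all genes did. PFK1 and PFK2 were just past 2-fold there, at -1.01 and -1.03 log2 units for library 3 over library 2, and with a pseudocount of 1 their ranges were 0.93 and 0.94. Over all 4 libraries these same 4 genes had a range of at least 2-fold, as did 42.6% of all genes. The range of PGI1 with a pseudocount of 5 was 0.87, also under 2-fold. Without library 2 none of PGI1, PFK1 and PFK2 reached 2-fold, at ranges of 0.84, 0.74 and 0.71.

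The genes nearest in pattern to the other members were of varied kinds. Those nearest to HXK2 were SDS23, MDR1 and SHQ1, at distances of 0.091 to 0.095 log2 units. GLK1 was nearest to PAT1, which acts in messenger decapping, VCX1, a vacuolar calcium exchanger gene, and RIO1, at 0.051 to 0.062. For PGI1 they were the RNA helicase gene DBP2 at 0.043, RME1 at 0.075 and TIF1, which encodes a translation initiation factor, at 0.077. After each other, PFK1 was nearest to MGE1 and SES1, and PFK2 to YKR011C and TOM40, at 0.067 to 0.105. For HXK1, whose own median of 7.28 TPM is under that minimum of 10, SUC2, the invertase gene, PHO5, an acid phosphatase gene, and IST3 came first at 4.35 to 4.43. With a minimum of 1, set after seeing the values, NCE101 came first at 1.35, then YDR098C-B at 1.97 and YIL054W at 2.84. NCE101 was at 14.6 and 6.48 TPM in libraries 1 and 2 and was listed at 0 in libraries 3 and 4. SUC2, which like HXK1 is known to be glucose-repressed, stood at 41.9, 8.35, 12.1 and 1.13 TPM. By distance from HXK1, SUC2 ranked 1 of 3610 genes at 4.35 and HXK2 ranked 116 at 4.78. GLK1, also kept lower under glucose repression, ranked 591 at 4.98. These distances are large because HXK1 itself had a range of 6.02 log2 units, so they say little about a shared pattern. A part of glucose repression in these patterns was not tested.

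Lower glycolysis, from aldolase to pyruvate kinase, gave a scale for these values. Its 11 genes had a median level of 27.7, 98.7, 25.0 and 75.9 times the median gene, against 7.60, 12.8, 6.61 and 10.6 for the 6 upper genes. All 11 were above their own 4-library median in libraries 2 and 4 and below it in libraries 1 and 3, with median differences of -0.72, 1.00, -0.69 and 0.64 log2 units. That split is common. The library orders that give it (2 4 1 3, 2 4 3 1, 4 2 1 3 and 4 2 3 1) held 8.86, 9.83, 5.81 and 11.5% of the 5667 genes. The reverse orders were 1 3 2 4, 1 3 4 2, 3 1 2 4 and 3 1 4 2. They held 12.9, 10.3, 4.13 and 6.69%. Libraries 1 and 3 also had larger nuclear protein-coding shares of TPM (46.9 and 21.2%) than libraries 2 and 4 (12.2 and 5.77%). Their summed bases over these genes were higher too, at 232 and 137 against 72.3 and 41.4 megabases. A part of library composition or depth in the split was not tested. Of these 11 genes, 10 had a range of at least 2-fold, against 42.6% of all genes, and 7 had the order 2, 4, 1 and 3, against 8.86%. TDH3, a glyceraldehyde-3-phosphate dehydrogenase gene and the highest of them, was at 47.1, 302.1, 56.5 and 259 times the median gene. PYK2, a minor pyruvate kinase gene and the lowest, was at 1.52, 1.83, 1.47 and 1.63 times. Whether the 2 lists differ was not tested.

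Taken step by step, the 3 kinase genes summed to 28.4, 30.03, 21.2 and 22.3 times the median gene. The mean of the phosphofructokinase subunit genes, which form 1 enzyme, was 7.31, 12.8, 6.27 and 10.6 times, below the other steps in each library. Summed as the isoenzyme genes were, they came to 14.6, 25.6, 12.5 and 21.2 times, above PGI1 in libraries 1 and 3 and below it in libraries 2 and 4. Aldolase, encoded by FBA1 and next in the pathway, was at 29.2, 151, 27.5 and 107 times. Aldolase was thus above the kinase sum in each library, and by far the more in libraries 2 and 4.

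**Figure D5:**
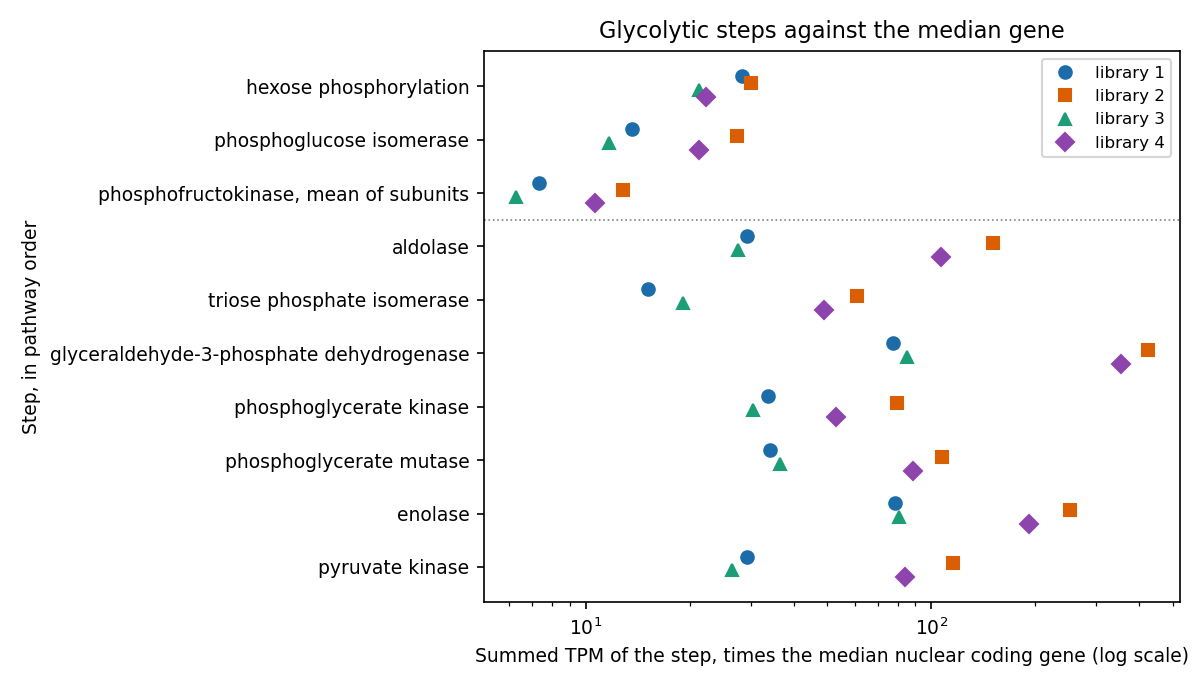
Summed TPM of the genes of each glycolytic step as a multiple of the median nuclear protein-coding gene (log scale), with the phosphofructokinase step as the mean of its 2 subunit genes and 1 point per library; the dotted line parts upper from lower glycolysis. Phosphofructokinase, as a mean, lies left of the other steps in each library (6.27 to 12.8), and from aldolase on, libraries 2 and 4 lie well to the right of libraries 1 and 3.

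Genes that encode related kinases were less abundant than HXK2 and GLK1. EMI2, a paralog of GLK1, stood at 3.68, 4.19, 3.39 and 3.92 times the median gene, above HXK1 in each library. YLR446W, a hexokinase-like reading frame, stood at 0.226, 0.289, 0.266 and 0.311 times. Neither had a range of 2-fold, so among these 5 sugar kinase genes HXK1 was the only one that did, against 42.6% of all genes. With a pseudocount of 5 the range of HXK2 was 1.27 log2 units, also past 2-fold.

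Fructose 2,6-bisphosphate activates phosphofructokinase, and its level is set by PFK26, PFK27 and FBP26. PFK26, a kinase gene, was below the median gene, at 0.447, 0.333, 0.370 and 0.463 times. PFK27, the second kinase gene, was at 1.77, 2.397, 1.48 and 2.88 times, and the phosphatase gene FBP26 at 1.255, 1.34, 1.03 and 1.09 times. The gluconeogenic genes, which are repressed on glucose, were below the median gene in each library. FBP1, whose enzyme opposes phosphofructokinase, stood at 4.90, 1.04, 1.15 and 0.852 TPM, and PCK1 at 0.802, 4.71, 0.892 and 0.404 TPM. Against the median gene FBP1 was at 0.122, 0.139, 0.0654 and 0.237 times and PCK1 at 0.0199, 0.628, 0.0507 and 0.113 times. PCK1 was thus highest in library 2 on both scales, at a coverage of 0.255, 2.33, 0.414 and 0.254. At so few reads, the order of these genes over the libraries is otherwise uncertain.

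Hexose phosphates also leave glycolysis by side branches, represented by 9 genes. In libraries 1 to 4, 8, 8, 7 and 8 of them were above the median gene, and 4 of the 9 had a range of at least 2-fold, near the 42.6% of all genes. ZWF1, which draws glucose 6-phosphate into the pentose phosphate pathway, was the highest, at 15.3, 9.11, 13.9 and 8.66 times the median gene. It was higher in libraries 1 and 3 and lower in 2 and 4, the reverse of PGI1. Its order of 1, 3, 2 and 4 was the most common of all, held by 729 of the 5667 genes (12.9%). A link between ZWF1 and PGI1 was not tested. INO1, which makes inositol phosphate from glucose 6-phosphate, was the lowest, at 0.152, 0.0384, 0.128 and 0.0877 times.

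Among 5 transcription factor genes of glycolysis, TYE7 had a range of at least 2-fold, which 42.6% of all genes had, and the others did not. TYE7 stood at 1.61, 7.29, 1.36 and 7.54 times the median gene. GCR1, whose product activates most glycolytic genes, stood at 1.21, 1.29, 1.03 and 1.65 times, and its partner GCR2 at 1.70, 1.11, 1.73 and 1.34 times. The general regulators RAP1 and REB1 stood at 1.86, 1.59, 1.58 and 1.07 times and at 2.38, 1.52, 2.06 and 1.42 times. Of 7 genes of glucose repression, in which Hxk2 takes part, 1 had a range of at least 2-fold, against the same 42.6%. GLC7, the catalytic phosphatase subunit gene and the highest, was at 4.78, 5.14, 4.70 and 6.60 times the median gene, and MIG2, a repressor gene and the lowest, at 0.183, 0.371, 0.182 and 0.435 times.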

How the data were processed

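RNA-seq of total RNA was available for 4 libraries as tables of gene abundances. Per the file headers, the authors gave each gene a coverage value (a read-depth signal), an FPKM and a TPM. Within a table TPM, FPKM and coverage were constant multiples of each other. TPM summed to 1000000 over 7108 entries, ribosomal RNA included. Per the submitters' processing notes, sacCer3 was the build and the tools included BWA, Picard and SAMtools; for the abundance estimator, the strandedness and the handling of overlapping or similar genes, the answer is not given in the sources used here. Read counts are unknown, so no counting intervals were computed. Over nuclear protein-coding genes, coverage times span came to 232, 72.3, 137 and 41.4 megabases. An entry at 0 can be a failed estimate.

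A RefSeq gene table (assembly R64) matched 6011 identifiers and gave the protein-coding class; the starts of all 6 members were equal in it. No sequences were used here. Levels were TPM over the median TPM of 5989 nuclear protein-coding genes. Differences used log2(TPM + 0.1), a scale on which folds of weakly expressed genes come out too small, centred per library on the median of those 5667 whose median TPM was 1 or more; all 6 members were kept. The nearest genes were the 3 with the smallest Euclidean distance at a median TPM of 10 or more. From the context lists, all genes were named for lists of up to 5, and otherwise the highest and lowest by median TPM; FBA1, the genes nearest to HXK1 at the lower minimum and the entries beside HXK1 and GLK1 were added after values were seen. Members and lists were chosen with earlier results of these data known. No difference between libraries was tested; the computation was tested on simulated data. Dixon ratios over the 4 libraries, for the level of each gene, the 5 ratios and the share, reached 0.546 at most, under the critical value of 0.829. This ratio can flag only a single stray library, not an even split of the libraries, and it was 0.370 for HXK1. Alternatives covered the pseudocount, filter, scaling, unit, frames overlapping ribosomal RNA and each library left out. Shifts beyond 1 SD over the libraries, or 1.5 times for a count, were recorded as moves. Python 3.11.15, numpy 2.4.6, pandas 2.3.3 and matplotlib 3.10.9 were used.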

Additional observations from a re-analysis of the deposited data

How the results depend on the processing

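No paired analysis was possible because no RNA-seq library has a group or a replicate number in the labels. Of 578 recomputed values, 519 moved by no more than the SD over the libraries (or 1.5 times for a count), and no difference of at least 1 log2 unit changed sign. The 519 include levels recomputed from coverage and FPKM and ratios recomputed from coverage. These could not move, because both units are constant multiples of TPM within a library. With the median taken over genes of median TPM at least 10, the median levels were 9.92 times for HXK2, 4.67 for GLK1, 5.46 for PFK1 and 5.31 for PFK2. With a pseudocount of 1 the median level of GLK1 was 6.93 times. Ranges over the libraries with a pseudocount of 5 were 3.05 log2 units for HXK1, 1.27 for HXK2 and 0.87 for GLK1, and the median of the 6 genes in library 4 was -0.35. Joined to its overlapping entry, an alternative added after seeing the data, HXK1 had a range of 2.68, taken from coverage without a pseudocount. With each library left out in turn, the range of GLK1 was 0.11 to 0.24, the lowest without library 3, and the log2 of the highest over the lowest PFK1 to PFK2 ratio was 0.026 to 0.058, the lowest without library 4. The 2-fold range of PFK1 and PFK2 was lost without library 2 (0.74 and 0.71) and without library 3 (0.80 and 0.79), and that of PGI1 without library 2 (0.84). By bases (coverage times span) in place of TPM, the 6 genes held 0.590, 0.843, 0.520 and 0.710% of nuclear protein-coding bases. With a pseudocount of 1, 218 genes were past 2-fold between libraries 2 and 4. With a pseudocount of 5 the pair of libraries 1 and 3 had 113 such genes, libraries 2 and 3 had 678, libraries 2 and 4 had 39, and libraries 3 and 4 had 780. Without a filter libraries 1 and 3 had 386. With a minimum median TPM of 10, and so fewer genes, there were 961 past 2-fold between library 1 and library 2, 74 between 1 and 3, 980 between 1 and 4, 756 between 2 and 3, 74 between 2 and 4, and 703 between 3 and 4. The cause of the other changes was not tested. Depth limits HXK1 most, at a coverage of 0.226 and 0.298 in libraries 3 and 4.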
